A study of Mus musculus with 4 samples.

Results

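The 31 genes described here encode subunits of the 2 Polycomb repressive complexes, and all of them were found among the 22374 named genes of the deposited tables. They were chosen by name: 11 belong to Polycomb repressive complex 2 (PRC2) and 20 to Polycomb repressive complex 1 (PRC1). The libraries hold poly(A) RNA of embryonic stem (ES) cells from mice of mixed C57BL/6X129Sv background, at less than 20 passages, grown in serum with leukemia inhibitory factor. The 4 groups were p53+/+ untreated, p53+/+ with Adriamycin, p53-/- untreated and p53-/- with Adriamycin, and the agent was given at 0.5 uM for 8 h. Adriamycin (doxorubicin) traps topoisomerase II on DNA and so breaks DNA strands, and p53 is the transcription factor stabilised by such damage. Each group had 1 library, so no difference below has a replicate check or a p-value. How p53 was removed, and whether each genotype is 1 clone, is not stated in the labels.

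Polycomb complexes keep developmental genes silent by marking the histones around them. PRC2 methylates lysine 27 of histone H3 (H3K27) through its catalytic subunit EZH2 or EZH1, and PRC1 attaches ubiquitin to histone H2A (at H2AK119) through RNF2 (RING1B) or RING1. PRC1 comes in canonical forms, which hold a CBX and a PHC protein and bind methylated H3K27, and in variant forms, which hold RYBP or YAF2 and 1 of several PCGF proteins. In ES cells both complexes sit at CpG-rich promoters of lineage genes that are poised for later use.

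Levels are given in FPKM (fragments scaled to transcript length and library size), summed over the transcripts of a gene. They are per length, but an exome enrichment kit is named in the labels' protocols, and its effect on single genes was not tested. Ranks of different genes by level below are therefore ranks of FPKM only. Differences are of log2(FPKM + 1), a scale that makes the change of low genes look smaller than it is, and a gene counts as higher or lower once it differs by 1 or more. Bounds are the 95% bounds that Cufflinks gave, summed over transcripts, and they cover counting and assignment error only. The libraries held 3.34 to 4.32 gigabases of aligned sequence, and 11404 to 12269 genes reached 1 FPKM in each. Trp53 RNA was still present in both libraries labelled p53-/-, at 78.6 and 76.5 FPKM without and with Adriamycin, against 216 and 165 FPKM in p53+/+ cells. The p53 target Mdm2 went from 32.6 to 257 FPKM with Adriamycin in p53+/+ cells, and from 17.7 to 19.9 FPKM without p53. Its treated p53+/+ value lay above its own upper bound of 249 FPKM, so the error of that value is not known. Cdkn1a, also used to check the labels, stood at 26.2 FPKM untreated and 85.8 FPKM treated with p53 present, a difference of 1.67. Where p53 was absent its levels were 18.0 FPKM untreated and 24.6 FPKM treated. That difference was 0.43, and the bounds lay apart in both genotypes. All 10 ES cell markers examined were above 1 FPKM in every library. The p53-/- libraries also held fibroblast marker RNA: the 15 markers summed to 635 and 558 FPKM there against 30.6 and 42.6 FPKM in p53+/+ cells, where Col3a1, Lum, Dcn and Postn were listed at 0. The 13 primitive endoderm markers went the other way, at 81.1 and 77.4 FPKM in p53-/- against 176 and 191 FPKM in p53+/+ cells. In such bulk libraries fewer cells of a type and less RNA per cell cannot be told apart.

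After Adriamycin, p53+/+ cells held less RNA of most PRC2 genes. Of the 30 Polycomb genes that reached 1 FPKM, 3 were higher there by 1 or more, Phf1, Pcgf3 and Phc2. That share is near the 11.4% of all genes that were higher. In p53-/- cells no Polycomb gene differed by 1 or more, where 0.393% of all genes were higher and 0.47% lower by that step. Jarid2, Rbbp7, Pcgf1, Pcgf2 and Phc1 were lower there by less, with Cufflinks bounds apart. The promoters of the 6 genes whose response differed by 1 or more between the genotypes are shown first, as the 250 bases before the RefSeq transcription start. Whether these genes share regulation was not tested. Sequences are from RefSeq, build GRCm38.p6, read 5′ to 3′ on the strand of the gene, and capitals mark matches to the motifs described after them. The first 3 belong to the genes that were higher, and for Phc2 the window shown precedes the downstream one of its 3 listed starts, that of its abundant short transcript.

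Phf1 (GRCm38.p6, chr17:26932877-26933126, forward strand): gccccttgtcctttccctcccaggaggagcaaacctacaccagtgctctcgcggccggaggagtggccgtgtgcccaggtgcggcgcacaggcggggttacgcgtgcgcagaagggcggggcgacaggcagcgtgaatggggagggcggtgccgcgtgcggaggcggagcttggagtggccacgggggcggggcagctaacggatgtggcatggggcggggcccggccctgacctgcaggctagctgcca
Pcgf3 (GRCm38.p6, chr5:108461009-108461258, forward strand): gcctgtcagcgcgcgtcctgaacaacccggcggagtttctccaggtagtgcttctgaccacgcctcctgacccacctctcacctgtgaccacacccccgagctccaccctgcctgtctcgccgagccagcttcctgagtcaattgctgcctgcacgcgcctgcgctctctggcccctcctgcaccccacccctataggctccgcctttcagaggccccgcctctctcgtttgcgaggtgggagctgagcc
Phc2 (GRCm38.p6, chr4:128727321-128727570, forward strand): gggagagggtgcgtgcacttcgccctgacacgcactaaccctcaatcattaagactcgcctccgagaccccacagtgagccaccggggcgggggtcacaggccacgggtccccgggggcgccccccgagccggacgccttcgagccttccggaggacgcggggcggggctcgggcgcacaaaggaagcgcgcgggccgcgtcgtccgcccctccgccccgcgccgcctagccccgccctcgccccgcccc

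The next 3 belong to genes of PRC2 whose RNA was lower in treated p53+/+ cells, namely the catalytic subunit gene Ezh2, the scaffold gene Suz12 and the accessory gene Phf19.

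Ezh2 (GRCm38.p6, chr6:47595031-47595280, reverse strand): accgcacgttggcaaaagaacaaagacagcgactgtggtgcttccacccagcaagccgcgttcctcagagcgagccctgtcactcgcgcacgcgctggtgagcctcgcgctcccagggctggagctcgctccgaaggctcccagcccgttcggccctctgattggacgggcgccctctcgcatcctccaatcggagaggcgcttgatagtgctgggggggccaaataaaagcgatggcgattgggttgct
Suz12 (GRCm38.p6, chr11:79992856-79993105, forward strand): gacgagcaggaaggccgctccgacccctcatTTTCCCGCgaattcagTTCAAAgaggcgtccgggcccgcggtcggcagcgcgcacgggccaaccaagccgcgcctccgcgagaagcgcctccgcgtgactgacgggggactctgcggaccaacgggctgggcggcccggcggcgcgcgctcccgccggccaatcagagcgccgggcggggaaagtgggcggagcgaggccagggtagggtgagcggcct
Phf19 (GRCm38.p6, chr2:34913977-34914226, reverse strand): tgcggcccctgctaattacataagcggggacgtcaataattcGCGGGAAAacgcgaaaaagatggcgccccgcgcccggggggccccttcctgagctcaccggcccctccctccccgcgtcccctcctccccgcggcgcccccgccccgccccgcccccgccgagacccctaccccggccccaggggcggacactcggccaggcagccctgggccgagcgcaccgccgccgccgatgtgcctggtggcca

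Of the 31 members, 27 had at least 1 promoter in the RefSeq table, 39 promoters in all, and 34 of these starts matched the sequence of an annotated GENCODE transcript (the start of the Phc2 window above did not). Cbx2, Pcgf1, Rybp and Yaf2 had none. A motif was searched on both strands in the 250 bases, and its share among all 32851 promoters of the table is given beside it. The p53 half-site consensus was present in 7.13% of all promoters and in 1 member, Pcgf2. A pair of CATG cores at the spacing of a full p53 site, CATG then any 6 bases then CATG, was present in 0.49% of all promoters and in 1 member, Kdm2b, in 2 overlapping windows before its internal start. The E2F element (TTTCCCGC, TTTGGCGC, TTTGCCGC or TTTCGCGC) was present in 1.86% of all promoters and in 2 members, Suz12 and Phf19. The cell cycle homology region (TTTGAA) was present in 16% of all promoters and in 6 members, Aebp2, Cbx7, Eed, Mtf2, Scmh1 and Suz12. In the Suz12 window the E2F match began 219 bases and the TTTGAA match 203 bases before the start, and in the Phf19 window the E2F match began 208 bases before it. None of these letters occurred in the windows of Phf1, Pcgf3, Phc2 or Ezh2. A match is no proof of a bound site, and its absence says nothing of sites elsewhere.

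**Figure D1:**
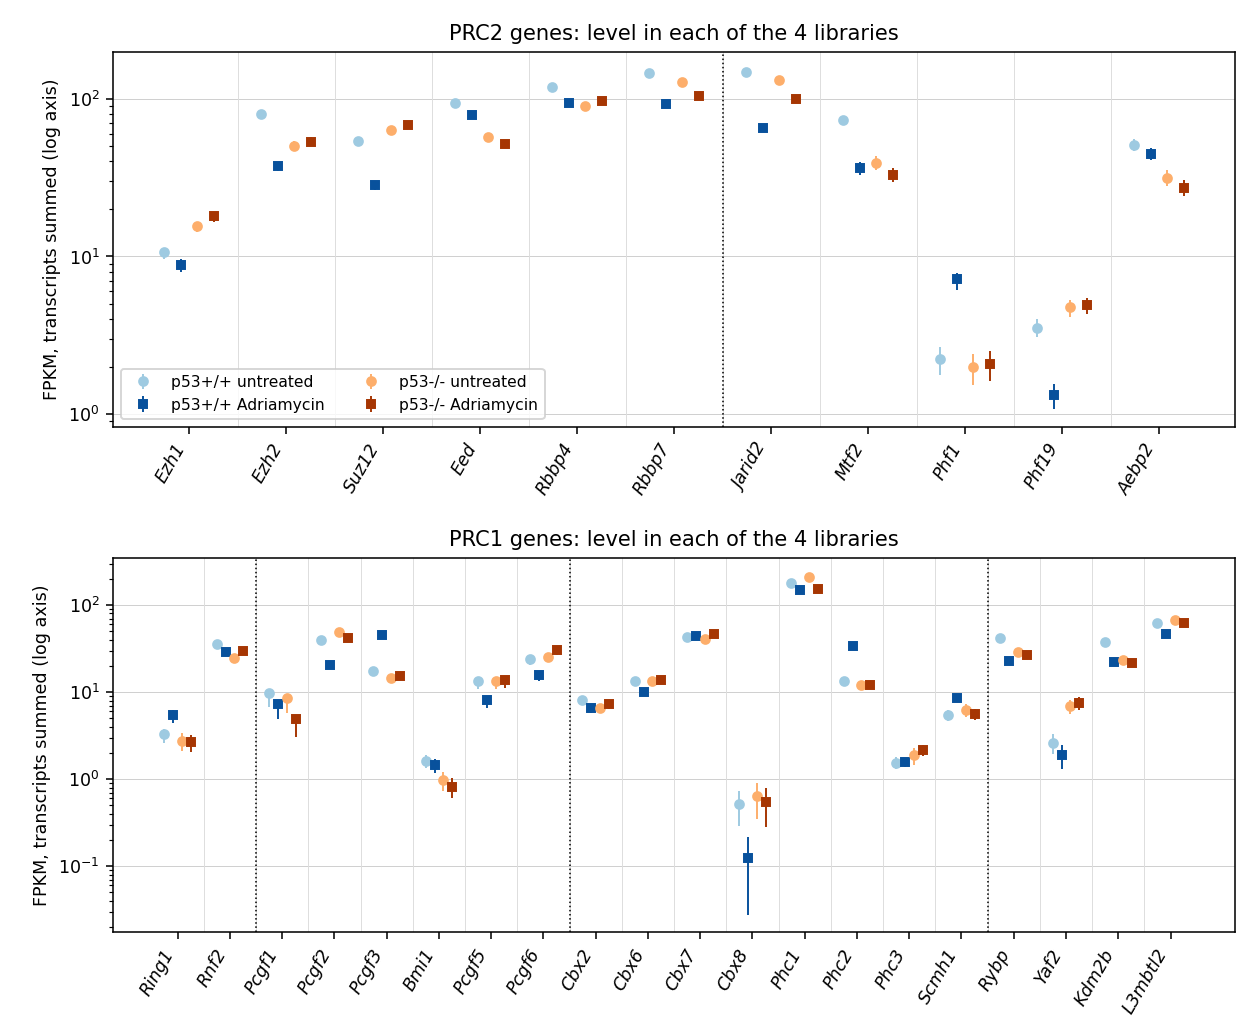
FPKM of each PRC2 gene (top) and PRC1 gene (bottom) in the 4 libraries, on a log axis, with transcripts summed. Circles are untreated and squares Adriamycin-treated cells, bars are the summed Cufflinks bounds (left out for Eed, whose FPKM lay above its own upper bound), and dotted lines separate the role groups. Phf1, Pcgf3 and Phc2 are highest in treated p53+/+ cells, and Suz12, Jarid2 and Phf19 are lowest there.

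In untreated p53+/+ cells PRC2 genes were as a group more abundant than PRC1 genes, with a median of 73.1 FPKM over the 11 PRC2 genes and of 13.4 FPKM over the 20 PRC1 genes. The PRC2 median was 37.2 FPKM in treated p53+/+ cells and 50.3 and 51.6 FPKM in p53-/- cells without and with Adriamycin. The PRC1 median stayed between 12.9 and 13.8 FPKM in all 4 libraries. The most abundant Polycomb RNA in every library was Phc1, which encodes a Polyhomeotic protein of canonical PRC1, at 180.4, 149, 212 and 154 FPKM in the order p53+/+ untreated, p53+/+ treated, p53-/- untreated and p53-/- treated. The same order is used for every set of 4 values below. The least abundant was Cbx8, at 0.516, 0.125, 0.641 and 0.549 FPKM. Cbx8 did not reach 1 FPKM in any library, so 30 members, all 11 of PRC2 and 19 of PRC1, enter the counts.

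Of the 30 members, 3 were higher and 2 lower in treated than in untreated p53+/+ cells, where 11.4% of all 12988 genes were higher and 2.79% lower. The share of members that were higher is thus near that of all genes. With a pseudocount of 5 FPKM Phf1, a low gene, was no longer called. Under upper quartile or median ratio scaling the members' split became 3 higher and 6 lower. The shares of all genes were 10.2% higher and 3.91% lower under upper quartile scaling, and 10.1% and 4.15% under median ratio scaling. Over all genes called, 80.3% were higher with the deposited FPKM and 65.4% once libraries were quantile normalized, a step that shifted the all-gene median by -0.15. At a 1.5-fold step in FPKM + 1, 4 members were higher and 10 lower, against 21.7% and 11.3% of all genes. Of those 10, 6 were among the 11 PRC2 genes and 4 among the 19 PRC1 genes. The Cufflinks bounds of the treated and untreated values lay apart downwards for 18 of the 29 members whose values lie within their own bounds, against 24.2% of all such genes, and upwards for 5, against 35.6%. The median difference was -0.64 for PRC2 and -0.28 for PRC1, beside 0.05 for all genes. After quantile normalization the order turned, with -0.44 for PRC2 and -0.46 for PRC1. Of the PRC2 genes 10 were below 0, and of the PRC1 genes 13 of 19. ES cell markers were lower in the same library, with all 10 below 0, a median of -0.68 and a summed level of 4461 FPKM before and 3027 FPKM after treatment, and their part in the Polycomb values was not tested.

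Among the core subunits of PRC2, Ezh2 moved most. Ezh2, the catalytic subunit of dividing cells (chromosome 6, 47480273 to 47545029 in mm9), stood at 79.8, 37.2, 50.3 and 53.3 FPKM. It was highest in untreated and lowest in treated p53+/+ cells, and its bounds there, 75.8 to 84.2 and 34.7 to 39.9 FPKM, lay far apart. The difference was -1.08 in p53+/+ cells, or 2.14-fold lower, and 0.08 in p53-/- cells. Suz12, which encodes the scaffold that holds the complex together (chromosome 11, 79806608 to 79847625), stood at 54.0, 28.2, 62.9 and 68.6 FPKM. Treated p53+/+ cells were the library with the lowest value, and its differences were -0.91 in p53+/+ and 0.12 in p53-/- cells.

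Ezh1 encodes the catalytic subunit found more in resting cells. It stood at 10.6, 8.84, 15.6 and 18.1 FPKM, higher in both p53-/- libraries than in either p53+/+ library. Eed, which encodes the subunit that reads methylated H3K27, stood at 93.8, 78.5, 56.8 and 51.6 FPKM, each above its own upper bound, so its error is not known. It was higher in both p53+/+ libraries, with small differences after Adriamycin of -0.25 and -0.13. The histone-binding subunit genes Rbbp4 and Rbbp7, which also serve other chromatin complexes, were among the most abundant members. Rbbp4 stood at 119.3, 94.0, 90.1 and 96.7 FPKM and Rbbp7 at 145, 92.8, 128 and 103 FPKM. Rbbp7 was lower after treatment in both genotypes, by -0.64 and -0.30, while Rbbp4 differed by -0.34 and 0.10.

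The accessory subunits of PRC2, which direct it to CpG-rich DNA or tune its activity, held both the lowest and the highest difference of all members in the p53+/+ response. Jarid2, a cofactor that recruits PRC2 in ES cells (chromosome 13, 44826143 to 45017012), stood at 149, 65.4, 132 and 98.9 FPKM. Its difference was -1.17 in p53+/+ cells, the lowest of the 30 members, and -0.41 in p53-/- cells, so it was lower after treatment in both genotypes and its bounds lay apart in both. Mtf2, the main Polycomb-like protein gene of ES cells, stood at 73.1, 36.1, 39.2 and 32.9 FPKM. The untreated p53+/+ library alone was high, and the other 3 values lay close together. Its difference in p53+/+ cells was just short of the step of 1. Phf19, a second Polycomb-like gene, stood at 3.55, 1.32, 4.78 and 4.96 FPKM. It was lowest in treated p53+/+ cells, where it was 2.69-fold below the untreated level, a difference of -0.97.

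Phf1, the remaining Polycomb-like gene (chromosome 17, 27070072 to 27074835), did the opposite. It stood at 2.25, 7.20, 1.99 and 2.08 FPKM, with bounds of 6.13 to 7.81 FPKM in treated p53+/+ cells and of at most 2.68 FPKM elsewhere. Treated p53+/+ cells thus stood apart from the other 3 libraries, whose bounds overlap. The difference was 1.34 in p53+/+ cells, 3.21-fold on the FPKM scale, and 0.04 in p53-/- cells. Aebp2, a zinc finger cofactor of PRC2, stood at 51.0, 44.8, 31.5 and 27.3 FPKM. It followed the genotype, with a treatment difference of -0.18 in p53+/+ and -0.20 in p53-/- cells.

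**Figure D2:**
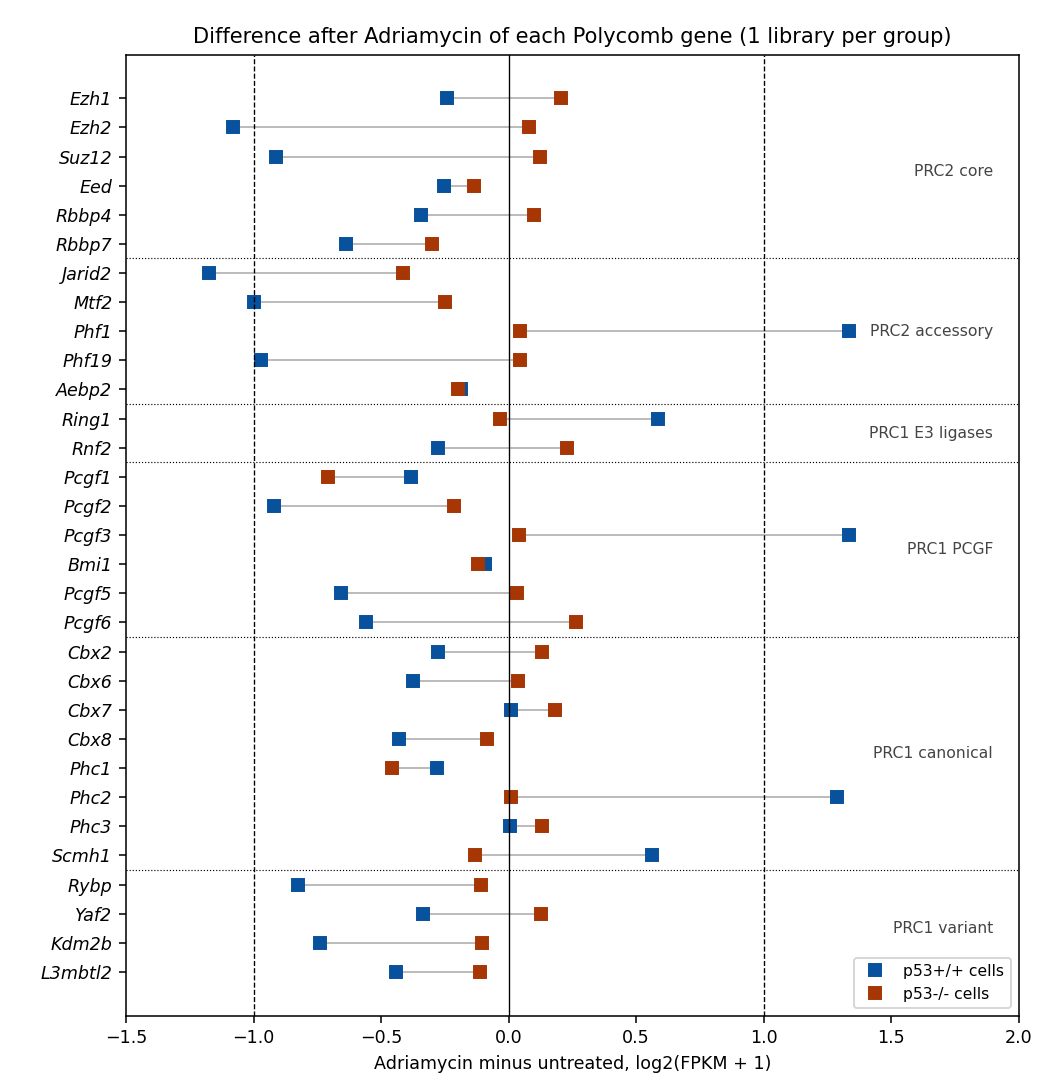
Difference after Adriamycin of each Polycomb gene in log2(FPKM + 1), for p53+/+ cells (blue) and p53-/- cells (brown), with 1 library per group. Dashed lines mark differences of 1 and -1. In p53+/+ cells Phf1, Pcgf3 and Phc2 lie beyond 1 and Ezh2 and Jarid2 beyond -1, and in p53-/- cells no gene does. Cbx8 is drawn but did not reach 1 FPKM.

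In PRC1 the ligase genes moved in opposite directions by small amounts. Rnf2, the main H2A ubiquitin ligase of ES cells, stood at 35.6, 29.2, 24.9 and 29.4 FPKM and was highest in untreated p53+/+ cells. Its paralog Ring1 stood at 3.28, 5.43, 2.75 and 2.67 FPKM, and treated p53+/+ cells were above the other libraries, with a difference of 0.59. Its bounds there, 4.45 to 6.20 FPKM, did not meet those of the untreated library, 2.59 to 3.81 FPKM. Each ligase pairs with a PCGF protein, which sets the kind of PRC1. Pcgf3, which marks a variant PRC1 (chromosome 5, 108890351 to 108932118), stood at 17.6, 45.9, 14.7 and 15.1 FPKM. Treated p53+/+ cells stood well above the rest, at a difference of 1.33, or 2.61-fold, against 0.04 in p53-/- cells.

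Pcgf2 (Mel18), which with Bmi1 defines canonical PRC1, stood at 40.1, 20.7, 49.3 and 42.4 FPKM. It was lowest in treated p53+/+ cells, at a difference of -0.92, and differed by -0.21 in p53-/- cells. Pcgf6 and Pcgf5, both of variant complexes, were also lowest in treated p53+/+ cells. Pcgf6 stood at 23.7, 15.7, 25.5 and 30.8 FPKM and Pcgf5 at 13.4, 8.17, 13.6 and 13.9 FPKM. Their differences were -0.56 and -0.66 in p53+/+ cells and 0.26 and 0.03 in p53-/- cells. Pcgf1, of the KDM2B-containing variant complex, was lower after treatment in both genotypes and more so in p53-/- cells, at 9.74, 7.24, 8.55 and 4.85 FPKM and differences of -0.38 and -0.71. Bmi1 was near the floor of detection, at 1.62, 1.45, 0.966 and 0.811 FPKM.

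Of the canonical PRC1 genes, the CBX genes that passed the filter differed little. Cbx7, the chromodomain protein gene that dominates in ES cells, was the steadiest member, at 43.2, 43.5, 41.2 and 46.9 FPKM, a ratio of 1.14 between the highest and the lowest library. Cbx6 stood at 13.4, 10.1, 13.3 and 13.7 FPKM and Cbx2 at 8.13, 6.54, 6.51 and 7.22 FPKM. The span of Cbx6 is shared over 10436 bases with Npcd in the deposited tables, so its reads cannot be assigned with certainty. Phc2, a Polyhomeotic gene (chromosome 4, 128331946 to 128430125), was the third gene that stood apart in treated p53+/+ cells, at 13.4, 34.2, 12.1 and 12.2 FPKM. Its difference was 1.29 in p53+/+ cells, or 2.55-fold, and 0.01 in p53-/- cells. The far more abundant Phc1 differed by -0.28 and -0.46. Phc3, the rarest of the 3, stood at 1.55, 1.56, 1.88 and 2.15 FPKM. Scmh1, a Polycomb protein gene that binds PHC proteins, stood at 5.48, 8.57, 6.19 and 5.56 FPKM, highest in treated p53+/+ cells.

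The 4 other genes of variant PRC1, Rybp, Yaf2, Kdm2b and L3mbtl2, had differences below 0 in p53+/+ cells, none past the step of 1, and for Yaf2 the bounds of the treated and untreated values overlapped. Rybp, whose protein stimulates the ligase, stood at 41.5, 23.0, 28.5 and 26.4 FPKM, with a difference of -0.83. Kdm2b, whose protein brings PRC1 to unmethylated CpG islands, stood at 37.2, 21.9, 23.5 and 21.8 FPKM. For both, untreated p53+/+ cells were above the other 3 libraries. L3mbtl2, of the PCGF6-containing complex, stood at 62.8, 46.0, 67.0 and 62.0 FPKM and was lowest in treated p53+/+ cells. Yaf2, the paralog of Rybp, stood at 2.62, 1.87, 6.85 and 7.57 FPKM and separated the genotypes rather than the treatments.

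In p53-/- cells 0 of 30 members were higher and 0 lower after Adriamycin, where 0.393% of all genes were higher and 0.47% lower. The medians were 0.04 for PRC2 and 0.01 for PRC1, beside 0.07 for all genes. At a 1.5-fold step 0 were higher and 1, Pcgf1, was lower, against 1.58% and 1.49% of all genes. The lowest member was Pcgf1 at -0.71 and the highest Pcgf6 at 0.26. Bounds lay apart downwards for 5 members, Jarid2, Pcgf1, Pcgf2, Phc1 and Rbbp7, and upwards for 4, Cbx7, Pcgf6, Rbbp4 and Rnf2, against 5.12% and 11% of all genes within their own bounds. The signs of the small differences of Ezh2, Phf1, Phf19, Pcgf3, Pcgf5, Cbx6, Phc2 and Phc3 in p53-/- cells turned under at least 1 other scaling, so no direction is given for them there.

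The response of p53+/+ cells minus that of p53-/- cells was at least 1 for Phf1 (1.29), Pcgf3 (1.29) and Phc2 (1.28), and -1 or less for Ezh2 (-1.16), Suz12 (-1.03) and Phf19 (-1.02). Over all genes 10.4% were at 1 or more and 3.3% at -1 or less, beside 3 of 30 members in each direction. The 3 genes on the low side are all of PRC2. With a pseudocount of 5 FPKM Phf1, Suz12 and Phf19 no longer passed. At a 1.5-fold step 5 members were on the high side and 10 on the low side, 5 of PRC2 and 5 of PRC1, against 19.8% and 13.8% of all genes. Over all genes past the step, 76.0% were on the high side, and 65.4% once quantile normalized. The median was -0.45 for PRC2 and -0.33 for PRC1, beside -0.01 for all genes. Jarid2, which was lower in both genotypes, stood at -0.76. This comparison contains the p53+/+ response, so they are not independent, and the difference between genotypes has no test with 1 library per group.

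**Figure D3:**
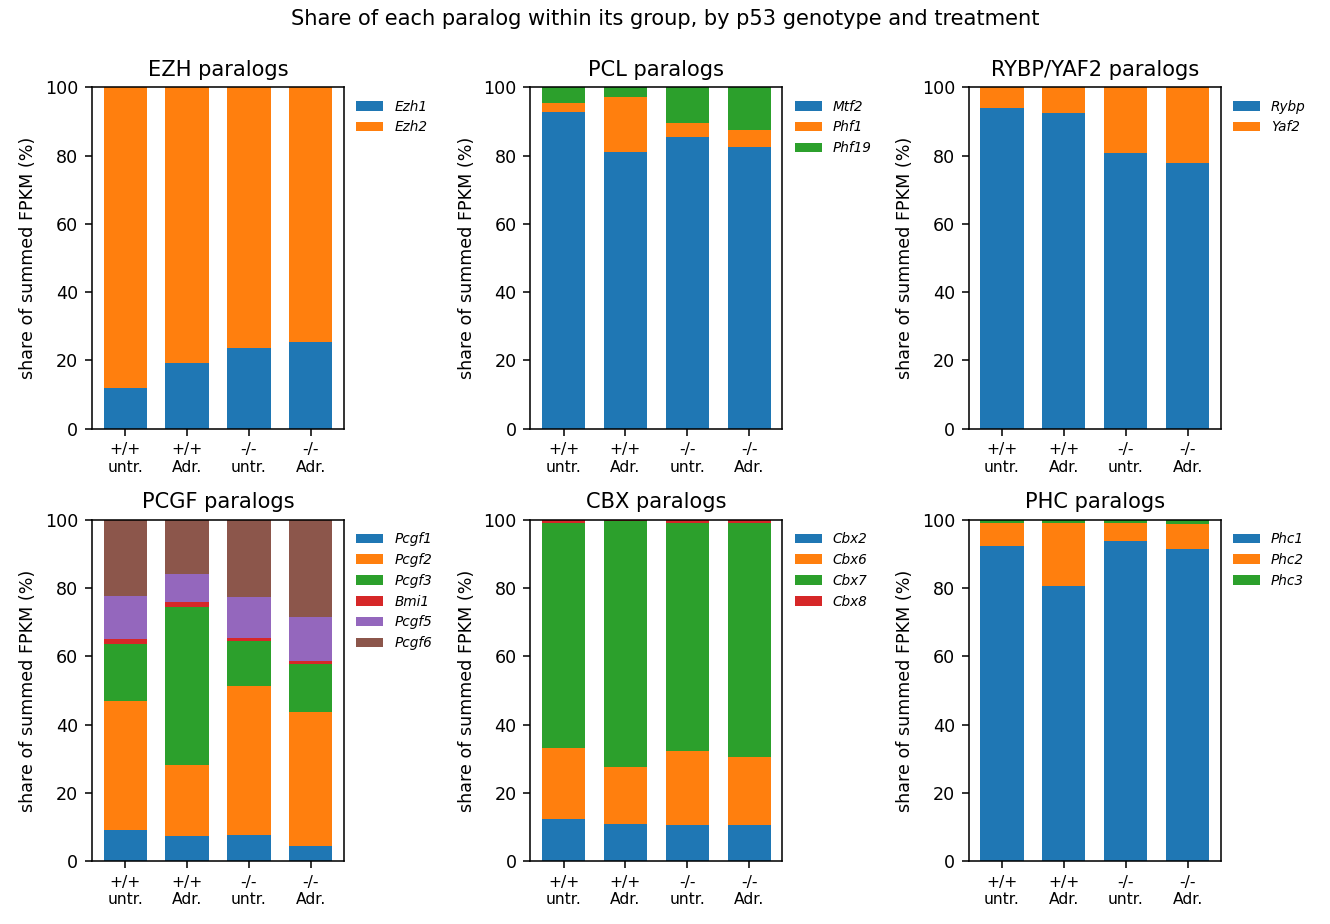
Share of each paralog in the summed FPKM of its group, in percent, for 6 groups and the 4 libraries (+/+ and -/- are the p53 genotypes, untr. untreated, Adr. Adriamycin). In treated p53+/+ cells Pcgf3 makes up 46.2% of the PCGF group, Phc2 18.5% of the PHC group and Phf1 16.1% of the Polycomb-like (PCL) group, and Yaf2 takes a larger share in both p53-/- libraries.

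A share within a group of paralogs is unaffected by a single scaling factor per library, though it moves with the level of every paralog in the group. The summed level of the 6 PCGF genes was nearly the same in all libraries, at 106, 99.2, 112 and 108 FPKM. Within it Pcgf3 made up 16.6%, 46.2%, 13.0% and 14.0%, and Pcgf2 37.7%, 20.9%, 43.8% and 39.3%. By FPKM, Pcgf3 was thus the leading PCGF RNA in treated p53+/+ cells, and Pcgf2 in the other 3 libraries. In the Polycomb-like group Phf1 made up 2.85%, 16.1%, 4.32% and 5.20%, while the summed level of the group was 78.9, 44.6, 46.0 and 39.9 FPKM. Its share thus moved with the lower level of Mtf2 as well as its own. Phc2 made up 6.86%, 18.5%, 5.34% and 7.23% of the PHC group, and Phc1 made up between 80.6% and 93.8%. With the main transcript of each gene alone, the share in treated p53+/+ cells was 32.3% for Phf1 and 33.5% for Phc2. Ezh1 made up 11.8%, 19.2%, 23.6% and 25.3% of the EZH pair, lowest in untreated p53+/+ cells. Ring1 made up 8.44%, 15.7%, 9.95% and 8.33% of the RING1 and RNF2 pair. The CBX group changed little, with Cbx7 between 66.2% and 72.1%. Of the RYBP and YAF2 pair, Yaf2 made up 5.93%, 7.52%, 19.4% and 22.3%.

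Without treatment, p53-/- cells differed from p53+/+ cells by at least 1 in 1 of 30 members, Yaf2, which was higher by 1.12, or 2.62-fold, a call lost with a pseudocount of 5 FPKM. Of all genes 3.48% were higher and 3.13% lower. The bounds of Yaf2, 5.57 to 8.12 FPKM in p53-/- and 1.95 to 3.30 FPKM in p53+/+ cells, lay apart. At a 1.5-fold step 5 members were lower, Mtf2 (-0.88), Eed (-0.71), Aebp2 (-0.68), Ezh2 (-0.65) and Kdm2b (-0.64), and 4 of these belong to PRC2. At that step 10.9% of all genes and 16.7% of the members were lower, and 10.3% of all genes and 1 member, Yaf2, were higher. Bounds lay apart upwards for 6 members, Ezh1, Pcgf2, Phc1, Phf19, Suz12 and Yaf2, and downwards for 11, against 21.1% and 27.5% of all genes within their own bounds. Ezh1 was higher by 0.51, with bounds apart. The medians were -0.18 for PRC2 and -0.07 for PRC1, beside -0.05 for all genes. In these libraries 13 of the 14 fibroblast markers that reached 1 FPKM were higher and 7 of 12 primitive endoderm markers lower in p53-/- cells. Of the trophoblast markers 3 of 6 were higher. ES cell markers were lower, with 8 of 10 below 0, a median of -0.60 and a summed level of 3176 against 4461 FPKM. The part of the ES cells and of other cell types in the values of Yaf2, Ezh1 and the lower genes was not tested.

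Between treated cells 3 of 30 members were higher in p53-/- than in p53+/+ cells, Yaf2 (1.58), Phf19 (1.36) and Suz12 (1.25), and 3 were lower, Pcgf3 (-1.54), Phc2 (-1.42) and Phf1 (-1.41). Of all genes 6.69% were higher and 13% lower. The calls of Yaf2, Phf19 and Phf1 were lost with a pseudocount of 5 FPKM. Upper quartile scaling moved the members to 6 higher, with Ezh1, Pcgf2 and Pcgf6 added, against 7.86% of all genes. Pcgf2 lay just under the step with the deposited FPKM, at 42.4 against 20.7 FPKM. At a 1.5-fold step 8 members were higher and 6 lower, against 17.7% and 23.4% of all genes. Bounds lay apart upwards for 14 members and downwards for 7, against 29.2% and 35.6% of all genes within their own bounds. Over all genes called, 34.0% were higher, and 44.2% once quantile normalized, where the all-gene median shifted by 0.12. The medians were 0.15 for PRC2 and 0.11 for PRC1, beside -0.02 for all genes. This comparison shares the treated p53+/+ library with the p53+/+ response, so the same high values of Phf1, Pcgf3 and Phc2 enter both. The fibroblast markers were higher here in 12 of 14 and the trophoblast markers in 3 of 6, and the primitive endoderm markers were lower in 9 of 12. Of the 10 ES cell markers 7 were below 0, with a median of -0.25. The part of all these markers was not tested. Outside the treated p53+/+ library, Phf1 spanned 1.99 to 2.25 FPKM, Pcgf3 14.7 to 17.6 FPKM and Phc2 12.1 to 13.4 FPKM. Among these 3 libraries the bounds of Pcgf3 lay apart between the untreated genotypes, at 16.0 to 18.1 FPKM in p53+/+ and 13.3 to 15.6 FPKM in p53-/- cells.

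**Figure D4:**
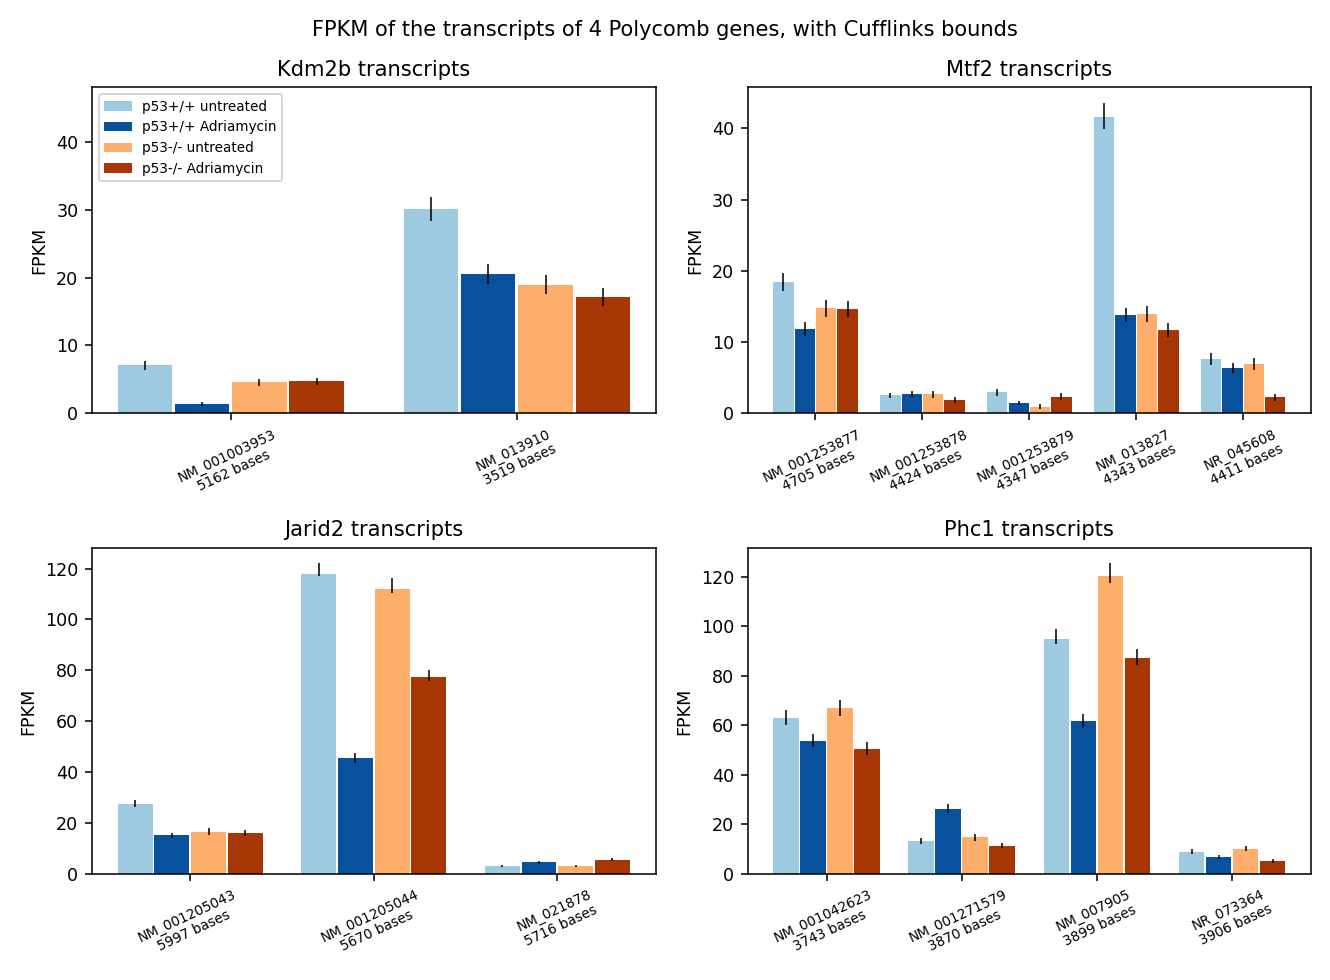
FPKM of the transcripts of Kdm2b, Mtf2, Jarid2 and Phc1 that reached 1 FPKM in a library, with bars from 0, the 4 libraries in colour and Cufflinks bounds as lines. The long Kdm2b transcript is lowest in treated p53+/+ cells, and a single Mtf2 transcript stands at 41.5 FPKM in untreated p53+/+ cells and at 11.8 to 13.9 FPKM in the others.

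The 31 genes had 55 transcripts in the tables, and 12 genes had several. Cufflinks divides reads among transcripts that share exons, so these values carry assignment error beyond that of a gene sum. Kdm2b had a long transcript (NM_001003953, 5162 bases), whose protein carries the demethylase domain, and a short one (NM_013910, 3519 bases) from an internal start, whose protein lacks it and keeps the CpG-binding zinc finger. The long transcript stood at 7.10, 1.43, 4.56 and 4.71 FPKM, a difference of -1.74 in p53+/+ cells and 0.04 in p53-/- cells. Its bounds in treated p53+/+ cells, 1.15 to 1.71 FPKM, lay far below the others. The short transcript stood at 30.1, 20.5, 19.0 and 17.1 FPKM. The long form therefore made up 6.52% of Kdm2b FPKM in treated p53+/+ cells and between 19.1% and 21.6% in the other libraries.

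For Mtf2 the excess in untreated p53+/+ cells lay mostly in 1 of its transcripts. That transcript (NM_013827, 4343 bases) stood at 41.5, 13.8, 13.9 and 11.8 FPKM, against 18.4, 11.8, 14.7 and 14.7 FPKM for the next (NM_001253877). It made up 56.8% of Mtf2 FPKM in untreated p53+/+ cells and between 35.6% and 38.2% elsewhere. In Jarid2 the main transcript (NM_001205044) stood at 118, 45.6, 112 and 77.2 FPKM, so it was lower after treatment in both genotypes, by -1.35 and -0.53. The transcript with the shorter span (NM_001205043) stood at 27.5, 15.2, 16.7 and 16.0 FPKM and resembled Mtf2, with untreated p53+/+ cells alone above the rest. Phc1 was lower as a sum in treated p53+/+ cells, yet its transcript from the upstream start (NM_001271579) was higher, at 13.4, 26.4, 14.8 and 11.4 FPKM. For Phc2 the short transcript (NM_001195083, 2549 bases) carried the increase, at 13.2, 31.8, 11.7 and 11.5 FPKM. Its longer transcript (NM_018774) stood at 0.173, 2.33, 0.368 and 9.53e-05 FPKM. The shares of the Phc3 transcripts moved between libraries at levels of at most 1.54 FPKM.

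Other genes of the pathway, taken from lists chosen with earlier results of these data known, had medians nearer 0 than PRC2 in the p53+/+ response. Of 23 Polycomb partners past the filter, 3 were lower and 0 higher in the p53+/+ response, with a median of -0.26, beside 2.79% lower and 11.4% higher of all genes. The same shares of all genes apply to the next lists. These 3 were Epop, an inhibitory PRC2 cofactor (118 to 55.1 FPKM), Sfmbt2, a Polycomb protein gene (6.67 to 1.35 FPKM), and Cbx3, which encodes the heterochromatin protein HP1 gamma found in PCGF6 complexes (56.9 to 23.9 FPKM). In p53-/- cells the same genes stood at 88.1 and 79.6, 6.48 and 4.76, and 48.6 and 49.1 FPKM. Epop stood above its own upper bound in every library, and Cbx3 in all but treated p53+/+ cells, so the error of both is not known. Of 12 genes of H2AK119 deubiquitination, 1 was lower, Hcfc1 (85.6 to 41.7 FPKM), and the median was 0.03. Mbd6, of the same list, was lower in treated p53-/- than in treated p53+/+ cells, at 9.95 against 22.4 FPKM. Of 13 genes of H3K27 demethylation and the trithorax group, which counters Polycomb, 1 was lower, Setd1b (6.83 to 2.75 FPKM), with a median of -0.23 and all 13 below 0. Setd1b was also lower in untreated p53-/- than in untreated p53+/+ cells, at a difference of -1.01. It was the only gene of that list lower there by the step, where 3.13% of all genes were lower. Both comparisons share the untreated p53+/+ library. After Adriamycin in p53-/- cells 0 genes of these lists passed the step in either direction, near the 0.393% higher and 0.47% lower of all genes. The medians of the lists there were 0.01, -0.02 and -0.01.

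**Figure D5:**
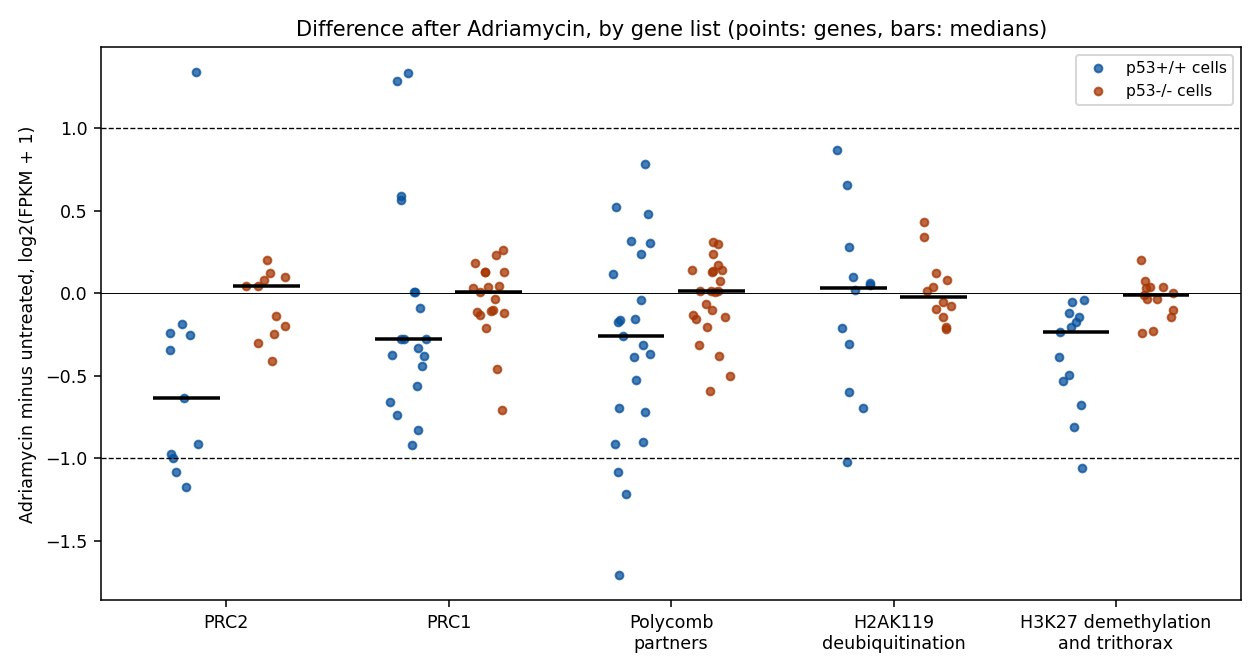
Difference after Adriamycin in log2(FPKM + 1) of the PRC2 and PRC1 genes and of 3 other lists, for p53+/+ cells (blue) and p53-/- cells (brown). Each point is a gene past the filter, placed with a small sideways offset, and the black bars are medians, which in p53+/+ cells run from -0.64 for PRC2 to 0.03 for deubiquitination genes.

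Genes known as Polycomb targets in ES cells were mostly low. Of 33 such developmental and cell cycle genes, 23 did not reach 1 FPKM in any library. Of the 10 that did, 2 stood higher and 1 stood lower after Adriamycin in p53+/+ cells, with a median of 0.10. Of all genes 11.4% were higher and 2.79% lower. In p53-/- cells 0 of the 10 passed the step after Adriamycin, beside 0.393% higher and 0.47% lower of all genes. Cdkn2b, which encodes the kinase inhibitor p15, stood at 0.911, 12.5, 5.97 and 7.61 FPKM, and the neural crest factor gene Pax7 at 0.160, 1.49, 0.0474 and 0.0858 FPKM. Eomes, of mesendoderm and trophoblast, stood at 3.16, 0.654, 1.85 and 2.34 FPKM. Cdkn2a, which encodes the tumour suppressors p16 and p19Arf and is a classic target of Bmi1, followed the genotype, at 10.4, 11.0, 60.5 and 58.3 FPKM. Gata4 and Gata6, which are also primitive endoderm markers, were lower in p53-/- cells, at 5.32 against 0.529 FPKM and 3.94 against 0.531 FPKM without treatment. Without treatment 3 of the 10 were higher in p53-/- cells, Pax6, Cdkn2a and Cdkn2b, and 2 lower, Gata4 and Gata6. Of all genes 3.48% were higher and 3.13% lower. Between treated cells 3 were higher in p53-/- cells, Pax6, Cdkn2a and Eomes, and 4 lower, Pax7, Gata4, Gata6 and Sox17. The shares of all genes there were 6.69% and 13%. Which of these values come from other cell types in the cultures was not tested.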

How the data were processed

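Per the file headers, the authors deposited 1 Cufflinks transcript table per library, with FPKM, its lower and upper bounds, the coverage and the length of each RefSeq transcript. Per the submitters' processing notes the tools were Cufflinks, TopHat, TopHat2 2.0.5 and CASAVA 1.8.1 and the build was mm9. Their settings and the Cufflinks version are not given in the sources used here. An exome enrichment kit is named per the labels' protocols, and its effect on single genes was not tested. Deposited coverage times length, summed, gave the depth.

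Of 30769 rows, 29878 were named from RefSeq (GRCm38.p6) or GENCODE M21. RNAs under 200 bases and short RNA classes were left out, transcripts were summed per gene, and the 12988 genes with at least 1 FPKM in at least 1 library were compared. Member positions come from the deposited mm9 loci and count from 1. With 1 library per group there is no test: 5 differences of log2(FPKM + 1) were taken, with a step of 1 as the call. All 31 members are named. Of the other pathway lists a gene was named at 5 FPKM or more and a difference past 1, up to 3 per list and direction. Pax6, Pax7, Gata6, Sox17, Eomes and the single transcripts described were chosen after their values were seen. The members and lists were chosen with earlier results of these data known. Scml2 and Auts2 were not analysed here. Members at 4 loci overlap another gene, and whether the counting used strand is not given. Other settings tried were a pseudocount of 0.1 or 5 FPKM, a filter of 5 FPKM or none, 3 scalings (upper quartile, median ratio, quantile), the main transcript alone, genes within their own bounds and a 1.5-fold step. The calculations were tested on simulated data and used Python 3.11.15, pandas 2.3.3 and numpy 2.4.6.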

Additional observations from a re-analysis of the deposited data

How the results depend on the processing

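No paired analysis was possible because each group has 1 library, and no library could be left out. All members called with the deposited FPKM kept their direction under the 3 scalings and with the main transcript alone. The other settings cannot turn the sign of a difference between a pair of libraries, so they do not test its direction. A changed pseudocount can turn the sign of the response difference between genotypes. The scalings were small beside a step of 1: quantile normalization shifted the all-gene median by -0.15 in the p53+/+ response. With a pseudocount of 5 FPKM the calls of Phf1, Yaf2, Suz12 and Phf19 were lost in at least 1 comparison. Of the counts and medians recomputed, 158 stayed within 1.5 times (counts) or 0.1 (medians) of the reported value and 32 did not. In the p53+/+ response, members lower were 4 with a pseudocount of 0.1 FPKM, 6 with upper quartile and with median ratio scaling, and 10 at a 1.5-fold step. Of all genes 4.73%, 3.91%, 4.15% and 11.3% were lower at these settings, in that order. The PRC2 median was -0.44 with a pseudocount of 5 FPKM, -0.49 with a filter of 5 FPKM, -0.74, -0.75 and -0.44 with upper quartile, median ratio and quantile scaling, and -0.77 over genes within their own bounds. The all-gene medians at these settings were 0.03, -0.02, -0.03, -0.04, -0.10 and 0.09. The PRC1 median was -0.38, -0.39 and -0.46 under the 3 scalings, so after quantile normalization the PRC2 median was no longer the lower one. In p53-/- cells 1 member was lower at a 1.5-fold step, against 1.49% of all genes. The PRC2 median there was -0.090 after quantile normalization, beside 0.01 for all genes. Between untreated genotypes 0 members were higher with a pseudocount of 5 FPKM, against 1.04% of all genes. By its main transcript 1 member (Mtf2) was lower, and at a 1.5-fold step 5 were, against 3.42% and 10.9% of all genes. The PRC2 median was -0.29 with a filter of 5 FPKM, beside -0.06 for all genes. Between treated genotypes members higher were 5 with a pseudocount of 0.1 FPKM, 1 with 5 FPKM, 6 with upper quartile scaling, 5 after quantile normalization and 8 at a 1.5-fold step, where 6 were lower. Of all genes 9.87%, 2.57%, 7.86%, 8.94% and 17.7% were higher at these settings, and 23.4% lower at the last. The PRC2 median there was 0.042 after quantile normalization and 0.33 over genes within their own bounds, beside 0.10 and -0.05 for all genes. For the response difference, 5 members were higher and 10 lower at a 1.5-fold step, against 19.8% and 13.8% of all genes. With a pseudocount of 5 FPKM 1 was lower, against 1.22% of all genes. The PRC2 median was -0.57 after quantile normalization and -0.60 over genes within their own bounds, beside -0.10 and 0.01 for all genes. The cause of these moves was not tested. Cbx8, Bmi1 and Phc3 were low in every library, and the effect of depth on their values was not tested.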
